A study of Mus musculus with 12 samples.

Results

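Interferon response and JAK-STAT genes were followed in embryonic kidneys of Pkd1-/- mutants, which lack the gene for polycystin-1, and of their wild-type (WT) littermates. The members were 45 listed genes: receptors that bind interferons or cytokines of the interleukin-6 family, the Janus kinases and STATs they act through, the SOCS and PIAS inhibitors, a pair of Janus kinase and microtubule interacting proteins, and genes that interferon is known to induce. All 99 probes annotated to these genes on the Illumina whole-genome array were taken. A probe was kept where its detection p, which sets it against the negative control beads of the same array, fell under 0.05 on 3 or more of the 12 arrays. By this rule 59 probes and 39 of the 45 members were kept, among 11616 named genes kept in all. The 6 members not kept were Stat5b, Socs7, Ifnar1 and Ifit1, detected on 0 arrays, and Socs1 and Irf7, each detected on 2. They were too dim to measure here and are not shown to be absent.

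The 12 arrays fall into 4 groups of 3: Pkd1-/- mutants at E17.5 (replicates 12, 40 and 42), WT at E17.5 (replicates 2, 38 and 41), Pkd1-/- mutants at E14.5 (replicates 35, 59 and 65) and WT at E14.5 (replicates 34, 57 and 58). E17.5 and E14.5 are days of embryonic development, the strain was CD-1 in every group, and no embryo was treated. The mutants carry the allele that the labels write as Pkd1null/null, in every cell and from conception, and which exons the allele lacks is not given in the sources used here. Each array carried total RNA of 1 pair of whole kidneys. Which mutant and WT embryos shared a litter is not given, and p-values measure the spread between these arrays.

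Interferons bind receptors at the cell surface, and the Janus kinases tied to those receptors phosphorylate STAT proteins, which enter the nucleus and switch on antiviral genes. STAT complexes that hold IRF9 bind a promoter element called the ISRE, while STAT dimers bind a shorter element called GAS. The same kinases serve the interleukin-6 family, growth hormone and prolactin, and SOCS proteins and CISH are made in response and damp the signal. Mutations in the gene for polycystin-1 cause most cases of autosomal dominant polycystic kidney disease. The cytoplasmic tail of polycystin-1 is known to act on JAK2, STAT3 and STAT6 in cultured cells.

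From 19397 to 20290 of the 45281 probes, 42.8 to 44.8%, were detected per array. The probe for Pkd1 itself read 7.75 ± 0.11 in mutants against 7.11 ± 0.44 in WT at E17.5, and 7.47 ± 0.30 in mutants against 6.67 ± 0.27 in WT at E14.5 (mean ± SD of log2 intensity, n = 3 each). It did not fall in mutants, and whether it lies in the deleted part is not known here. Kidney marker genes, 10 of 15 listed kept, averaged 9.76 to 10.23 at E17.5 and 8.16 to 8.90 at E14.5, with Pax2 and Emx2 not kept and the others not analysed here. Liver markers, 8 of 12 kept, averaged 11.87 on 1 WT array at E17.5, replicate 2, against 7.18 and 8.07 on the other WT arrays and 6.52 to 6.85 on the mutant arrays of that age. Alb, Apoa2, Fgb and Apoh were not kept.

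The interferon response genes differed mainly with age. In WT, 9 of the 10 kept response genes rose between E14.5 and E17.5, by 0.90 to 4.09 on the log2 scale, and in mutants 5 of the 10 rose. Over all features 20.2% rose in WT and 21.7% in mutants. With genotype at E17.5, 1 of the 10 response genes, Ifi35, passed the test and was lower in mutants, as were 1.39% of all features. The log2 fold change in mutants against WT was below 0 for 8 of the 10, with Irf1 (0.002) and Ifit3 (0.10) above 0. Outside this group, Jakmip1 and Ifnlr1 were higher in mutants at E17.5, and Socs2 and Cish rose with age by 1.63 to 1.94 in both genotypes. No member passed the genotype test at E14.5. Differences are log2 fold changes with limma's standard error, and a gene was called where its adjusted p over all 14882 tested features was under 0.05.

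Among the 39 kept members, 2 were higher (Jakmip1 and Ifnlr1) and 1 was lower (Ifi35) in mutants at E17.5. Over all features, 1.78% were called higher and 1.39% lower in that comparison, and nothing particular to the members is read from a count this small. An unadjusted p under 0.05 was reached by 11 of 39 members, against 20.1% of all features. For 11 members every mutant array lay on one side of every WT array, 4 higher and 7 lower, and this held for 24.2% of all features. Jakmip1 was the 1 member with a fold of at least 2 and an unadjusted p of at most 0.05, which 0.961% of all features reached. The median log2 fold change was -0.02 over the members and 0.02 over all features. Quantile normalization gave 265 features called higher and 207 lower, and cyclic loess in its place gave 155 and 186.

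At E14.5 limma called 0 of 39 members, against 0.0269% of features called higher and 0.0269% called lower, 4 each, where the authors' value table gave 4 higher and 7 lower. There 5 members had an unadjusted p under 0.05 (3.2% of all features), namely Jak3, Stat4, Socs2, Lifr and Ifngr1. The groups did not overlap for 7 members, 6 higher and 1 lower, against 9.12% of all features. The fold and unadjusted p that Jakmip1 met at E17.5 were met by 0 members at E14.5 and by 0.181% of all features.

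With age the members moved more. In mutants 15 of 39 rose and 3 fell at E17.5 against E14.5, while 21.7% of all features rose and 21.3% fell. In WT 20 of 39 rose and 3 fell, while 20.2% of all features rose and 23.5% fell, or 3000 and 3491 features, against 3670 and 2698 with cyclic loess. The 2 age comparisons share no array. In both, 14 members were called, all 14 in the same direction, 4 were called in mutants alone, 9 in WT alone and 12 in neither. Il6ra, which was kept through its E17.5 arrays alone, is among these 14. For the genotype difference at E17.5 against that at E14.5, limma called 0 members (0.0605% of all features higher, 0.114% lower), and 10 of 39 had an unadjusted p under 0.05 (10.7% of all features). A call in one genotype and not in the other is therefore not shown to be a difference between them.

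**Figure D1:**
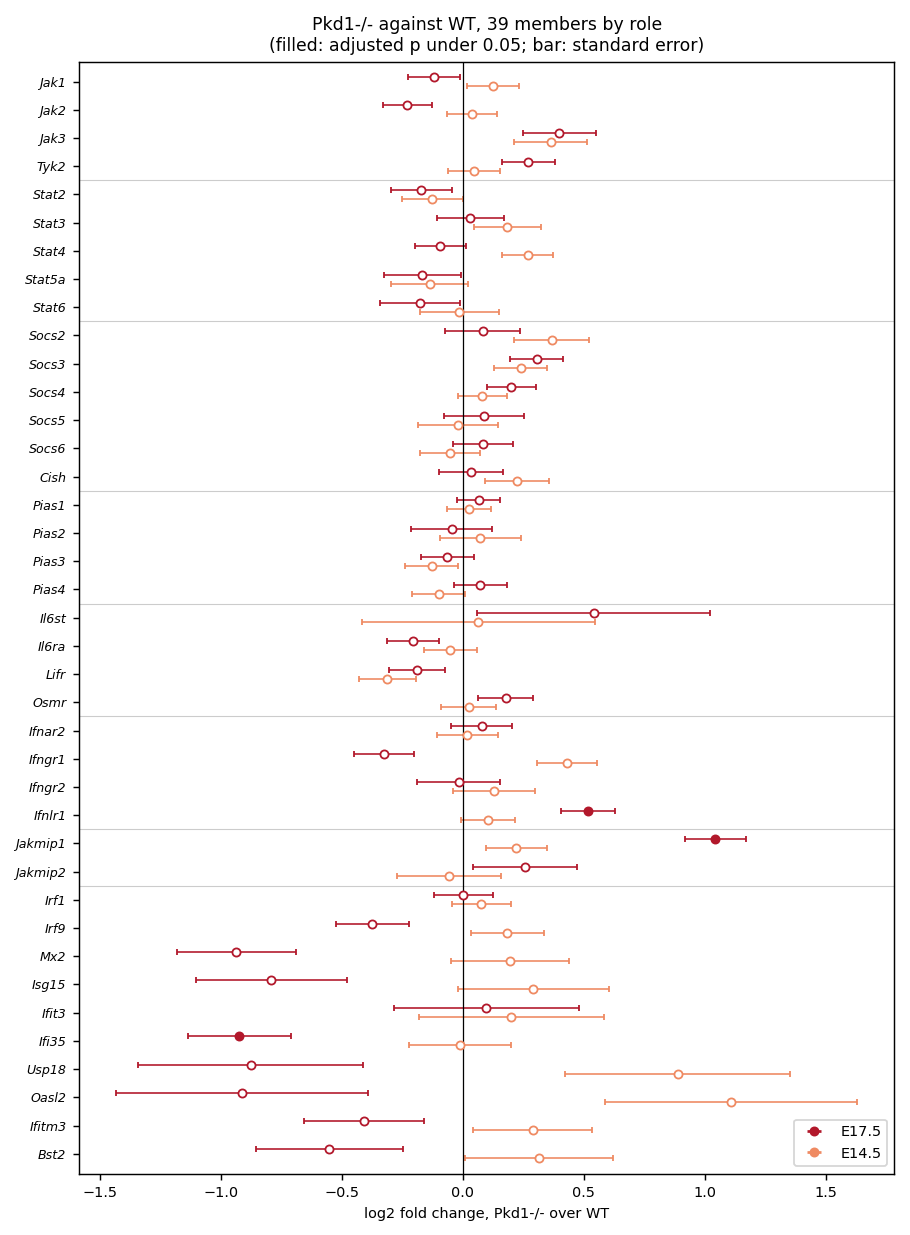
Log2 fold change of Pkd1-/- over WT (horizontal axis) for the 39 kept members in order of role, at E17.5 (dark red) and E14.5 (orange), with limma's standard error as bars and filled points where the adjusted p was under 0.05. Only Ifnlr1, Jakmip1 and Ifi35 are filled, all at E17.5, and 8 of the 10 interferon response genes at the bottom lie left of 0 at E17.5.

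**Figure D2:**
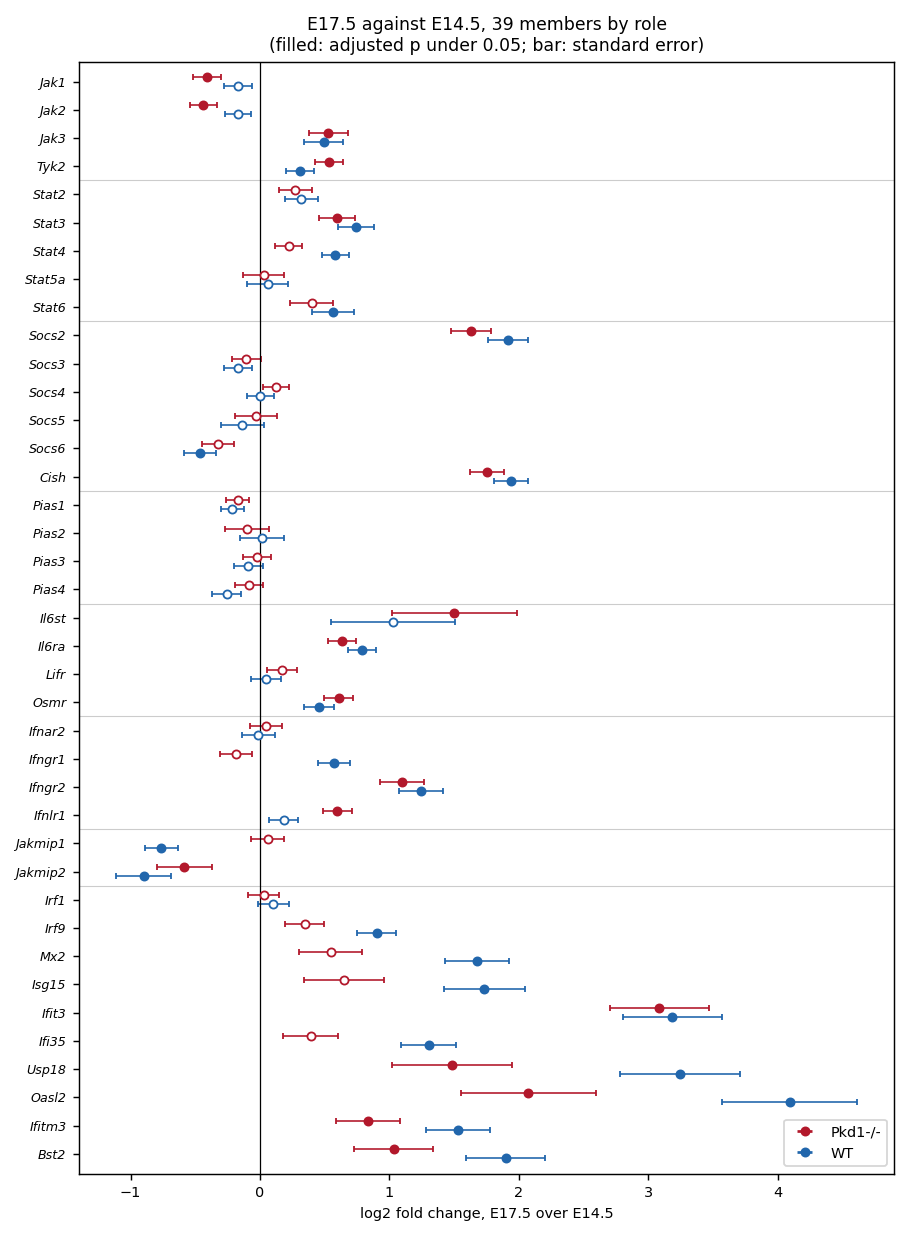
Log2 fold change of E17.5 over E14.5 (horizontal axis) for the same 39 members in Pkd1-/- (red) and WT (blue), with standard errors and filled points where the adjusted p was under 0.05. The interferon response genes at the bottom reach 4.09 in WT and 3.08 in mutants, and Socs2 and Cish stand apart from the other inhibitors in both genotypes.

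Among the receptors, Ifnlr1, the ligand-binding chain of the receptor for type III interferons, was the 1 interferon receptor that passed the genotype test. Its log2 intensity was 8.42, 8.19 and 8.14 in mutants against 7.68, 7.72 and 7.78 in WT at E17.5, and 7.79, 7.55 and 7.61 in mutants against 7.40, 7.73 and 7.50 in WT at E14.5. All 3 mutant arrays at E17.5 lay above the other 9 arrays. Ifnlr1 was 0.52 ± 0.11 higher in mutants at E17.5 (log2 fold change ± standard error, adjusted p = 0.0340), and a dimmer kept probe for it differed by 0.93. It rose with age in mutants by 0.60 (adjusted p = 0.00133) and had a difference of 0.18 in WT (adjusted p = 0.207, and 0.0399 with cyclic loess). The genotype call was lost without E17.5 mutant replicate 12 or 40, E17.5 WT replicate 2, 38 or 41, E14.5 mutant replicate 59 or 65, or E14.5 WT replicate 58, with log2 fold changes of 0.43 to 0.55 and adjusted p of 0.0503 to 0.0974.

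Ifngr1, a chain of the receptor for interferon gamma, had genotype differences of opposite sign at the 2 ages and passed the test at neither. At E17.5 it read 8.08, 7.86 and 8.22 in mutants against 8.59, 8.22 and 8.35 in WT, and at E14.5 it read 8.33, 8.11 and 8.29 in mutants against 7.91, 7.73 and 7.79 in WT. The groups met at E17.5 and were apart at E14.5, where mutants lay higher. Its log2 fold change was -0.33 (adjusted p = 0.170) at E17.5 and 0.43 (adjusted p = 0.818) at E14.5, and the difference between these was -0.76 ± 0.17 (unadjusted p = 0.00104 from limma, adjusted p = 0.165). Ifngr1 rose with age in WT by 0.57 (adjusted p = 0.00308).

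Ifngr2, the partner chain, rose with age by 1.10 in mutants and 1.25 in WT on its brightest probe (adjusted p = 4.03e-04 and 1.75e-04). Its other 2 kept probes differed by between -0.19 and 0.07 in the same comparisons, so the rise stands on 1 probe of 3. Ifnar2, a chain of the type I interferon receptor, lay between 7.0 and 7.53 on all 12 arrays and passed no test.

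In the interleukin-6 family, Osmr, the oncostatin M receptor, rose with age by 0.61 in mutants and 0.45 in WT (adjusted p = 0.00136 and 0.00737). Il6ra, the binding chain for interleukin-6, was detected on 0 arrays at E14.5 and on 1 mutant and 2 WT arrays at E17.5, so its calls with age rest on levels near the background. Il6ra was kept through its E17.5 arrays alone, so its rise with age follows in part from the rule. It was at least 1.07-fold higher at E17.5 in WT (adjusted p = 1.92e-04), and in mutants (adjusted p = 7.85e-04) no fold is given. Such bounds set the mean of the detected group against the lowest signal at which probes were detected on the other group's arrays. Lifr, the receptor for leukemia inhibitory factor, read 5.53, 5.50 and 5.62 in mutants against 5.63, 5.95 and 5.65 in WT at E17.5, and 5.54, 5.34 and 5.26 in mutants against 5.58, 5.66 and 5.85 in WT at E14.5. The mutant arrays lay below the WT arrays at both ages. The difference was -0.31 at E14.5 (unadjusted p = 0.0208, adjusted p = 1). At that age Lifr was detected on 1 mutant array and 3 WT arrays, so this difference too rests on levels near the background.

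Il6st encodes gp130, the signalling chain that these receptors share, and it split the E17.5 arrays without regard to genotype. It read 6.83, 8.63 and 8.40 in mutants against 6.79, 6.94 and 8.51 in WT at E17.5, and 6.61, 6.31 and 6.43 in mutants against 6.29, 6.61 and 6.27 in WT at E14.5. Replicates 40, 41 and 42 were high and replicates 12, 2 and 38 were close to the E14.5 arrays. Il6st was picked out after its values were seen. The log2 fold change with age was 1.5 in mutants (adjusted p = 0.0252) and 1.03 in WT (adjusted p = 0.105). The call in mutants was lost without replicate 40 (1.16, adjusted p = 0.101) or 42 (1.28, adjusted p = 0.0848), and also without E14.5 mutant replicate 59 (1.43, adjusted p = 0.0686) or 65 (1.49, adjusted p = 0.0624). In WT it was called without E17.5 mutant replicate 12 (1.03, adjusted p = 0.0412). Without replicate 41 the value in WT was 0.48.

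**Figure D3:**
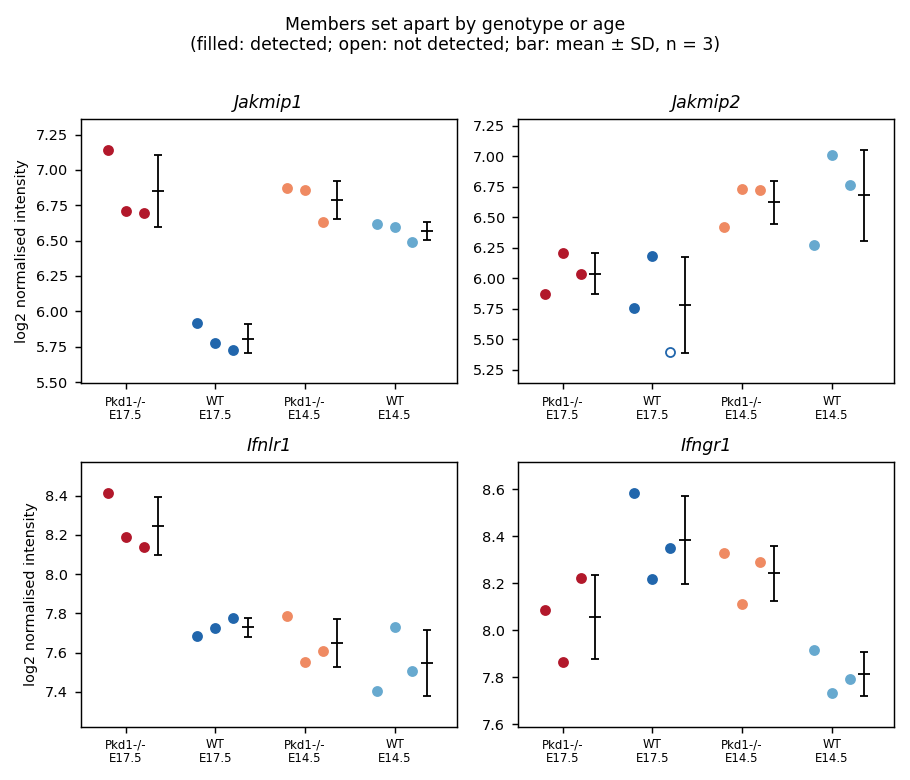
Log2 normalised intensity on each array for Jakmip1, Jakmip2, Ifnlr1 and Ifngr1 in the 4 groups, with the mean and SD (n = 3) as bars and open points for arrays without detection. The 3 WT arrays of E17.5 lie lowest for Jakmip1, between 5.73 and 5.92, and the 3 mutant arrays of E17.5 lie highest for Ifnlr1, between 8.14 and 8.42.

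All 4 Janus kinases were kept. Tyk2, which serves the type I interferon receptor, read 9.10, 8.76 and 8.71 in mutants against 8.47, 8.59 and 8.69 in WT at E17.5, and 8.38, 8.31 and 8.29 in mutants against 8.32, 8.31 and 8.20 in WT at E14.5. It rose with age by 0.53 in mutants (adjusted p = 0.00243) and by 0.31 in WT (adjusted p = 0.0403). The call in WT was lost without E17.5 WT replicate 38 or 41, any 1 of the E14.5 mutant replicates 35, 59 and 65 or any 1 of the E14.5 WT replicates 34, 57 and 58, with values of 0.25 to 0.33 and adjusted p of 0.0513 to 0.126. The mutant arrays at E17.5 lay just above the WT arrays, with a difference of 0.27 (adjusted p = 0.20).

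Jak3, the kinase of the lymphocyte cytokine receptors, read 6.63, 6.36 and 6.5 in mutants against 5.88, 6.32 and 6.10 in WT at E17.5. At E14.5 it read 6.02, 5.95 and 5.95 in mutants against 5.77, 5.27 and 5.78 in WT. The mutant arrays were the higher ones at both ages, by 0.40 (adjusted p = 0.171) and 0.36 (adjusted p = 1), and Jak3 rose with age by 0.53 in mutants and 0.49 in WT (adjusted p = 0.0145 and 0.0199). The call in mutants was lost without E17.5 replicate 12 (0.46, adjusted p = 0.0518), and that in WT without E17.5 replicate 38 (0.38, adjusted p = 0.0807) or E14.5 replicate 57 (0.32, adjusted p = 0.0792). Of 12 listed lymphocyte markers 2 were kept, averaging 6.18 to 6.52 over all arrays, with Cd3e, Cd3d, Cd3g, Cd4, Cd8a, Ms4a1 and Nkg7 not kept and the others not analysed here.

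Jak2, the kinase of growth hormone, prolactin and interferon gamma receptors, fell with age in mutants. It read 8.80, 8.74 and 8.67 in mutants against 8.91, 9.07 and 8.92 in WT at E17.5, and 9.17, 9.05 and 9.30 in mutants against 8.96, 9.24 and 9.20 in WT at E14.5. The difference with age was -0.44 in mutants (adjusted p = 0.00501) and -0.17 in WT (adjusted p = 0.202, and 0.0288 with the mean of its probes), and a second kept probe differed by -0.85 and -0.57. Jak1 fell with age in mutants by 0.41 on its brightest probe (adjusted p = 0.00898). A dimmer Jak1 probe, detected on 3 arrays, differed by 0.42 the other way, and the mean of its 3 kept probes differed by 0.07, so no direction is given for this gene.

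Jakmip1, a protein that binds Janus kinases and microtubules and is known mainly from neurons and lymphocytes, showed the clearest genotype difference of any member. It read 7.14, 6.71 and 6.69 in mutants against 5.92, 5.77 and 5.73 in WT at E17.5, and 6.87, 6.86 and 6.63 in mutants against 6.62, 6.59 and 6.49 in WT at E14.5. The WT arrays at E17.5 stood alone at the bottom. Jakmip1 was 1.04 ± 0.13 higher in mutants at E17.5 (adjusted p = 0.00146) and stayed called under all 23 other settings, with log2 fold changes of 0.73 to 1.38. With age it fell by 0.76 in WT (adjusted p = 6.35e-04), and in mutants the difference was 0.06 (adjusted p = 0.729). The genotype difference was 0.82 ± 0.18 larger at E17.5 than at E14.5 (unadjusted p = 7.10e-04 from limma, adjusted p = 0.135).

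Jakmip2, its paralogue, fell with age in both genotypes. It read 5.87, 6.21 and 6.03 in mutants against 5.76, 6.18 and 5.40 in WT at E17.5, and 6.42, 6.73 and 6.72 in mutants against 6.27, 7.01 and 6.76 in WT at E14.5. The log2 fold change was -0.58 in mutants (adjusted p = 0.0453) and -0.90 in WT (adjusted p = 0.00557). The call in mutants was lost when replicate 12, 40 or 42 of E17.5 mutants, replicate 2 of E17.5 WT, replicate 59 or 65 of E14.5 mutants or replicate 58 of E14.5 WT was left out, with values of -0.67 to -0.50 and adjusted p of 0.0547 to 0.131.

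Of the 5 STATs kept, none passed the genotype test at either age, and 4 of 5 had log2 fold changes between -0.18 and -0.09 at E17.5. Stat3, which carries the gp130 signal, rose with age by 0.59 in mutants and 0.74 in WT (adjusted p = 0.00499 and 0.00126), to 10.24 ± 0.02 in mutants and 10.21 ± 0.09 in WT at E17.5 (mean ± SD, n = 3). The dimmest of its 3 kept Stat3 probes, detected on 12 arrays, differed with age by 0.07 in mutants and 0.48 in WT, and by -0.32 with genotype at E17.5 (unadjusted p = 0.0241 from limma), so the rise in mutants was not seen on every probe. Stat6, the STAT of interleukin-4, rose by 0.56 in WT (adjusted p = 0.0163), a call lost without E14.5 WT replicate 57 (0.47, adjusted p = 0.0665). Stat4, the STAT of interleukin-12, was detected on all 6 arrays at E17.5 and on 2 mutant and 0 WT arrays at E14.5. It read 5.71, 5.65 and 5.81 in mutants against 5.88, 5.64 and 5.93 in WT at E17.5, and 5.62, 5.41 and 5.49 in mutants against 5.21, 5.34 and 5.16 in WT at E14.5. The 3 WT arrays at E14.5 were below the other 9, and the rise in WT was at least 1.25-fold (adjusted p = 9.88e-04).

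Among the inhibitors, Socs2 and Cish showed the largest change, a rise with age in both genotypes. SOCS2 and CISH are classical targets of STAT5 and damp growth hormone and prolactin signalling. Socs2 read 11.68, 11.87 and 11.80 in mutants against 11.71, 11.84 and 11.55 in WT at E17.5, and 10.35, 9.87 and 10.22 in mutants against 10.06, 9.53 and 9.75 in WT at E14.5. Every E17.5 array lay above every E14.5 array, by 1.63 ± 0.16 in mutants (adjusted p = 1.93e-05) and 1.92 ± 0.16 in WT (adjusted p = 6.05e-06). Cish read 9.98, 10.24 and 10.12 in mutants against 10.03, 9.98 and 10.23 in WT at E17.5, and 8.56, 8.22 and 8.30 in mutants against 8.33, 8.18 and 7.91 in WT at E14.5. Its rise was 1.75 ± 0.13 in mutants (adjusted p = 6.14e-06) and 1.94 ± 0.13 in WT (adjusted p = 2.31e-06). The mutant minus WT difference at E17.5 was 0.08 ± 0.16 for Socs2 and 0.03 ± 0.13 for Cish, with adjusted p = 0.816 and 0.922.

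The promoter of Cish carries 2 GAS letter patterns at its start site. The motif searched was TTCNNNGAA, which reads the same on both strands, in the RefSeq promoter table of build GRCm38.p6, which holds 250 bases before to 50 after each start site. It was found in 2582 of 27025 genes with an entry (9.55%) and in 8 of the 36 members with one. Both windows of Cish are shown 5′ to 3′ on the plus strand, at chr9:107296649-107296678 and chr9:107296660-107296689, with 1 match in capitals in each. They share bases, and Socs2 has no entry in the table.
Cish, first match: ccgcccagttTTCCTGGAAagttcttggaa
Cish, second match: tcctggaaagTTCTTGGAAatctgtcaaag
A match in letters is not a measured binding site.

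Socs3, the feedback inhibitor of gp130 signalling, read 8.80, 8.63 and 8.49 in mutants against 8.22, 8.53 and 8.24 in WT at E17.5, and 8.83, 8.65 and 8.74 in mutants against 8.54, 8.52 and 8.46 in WT at E14.5. Mutant and WT arrays met at E17.5, where the difference was 0.31 (unadjusted p = 0.0167, adjusted p = 0.152). Socs6 fell with age in WT, by 0.46 on the log2 scale (adjusted p = 0.0108). In mutants its difference was -0.33 (adjusted p = 0.0533), and it was called without E14.5 mutant replicate 35 (-0.43, adjusted p = 0.0219), E14.5 WT replicate 34 (-0.33, adjusted p = 0.0326) or E14.5 WT replicate 57 (-0.32, adjusted p = 0.0373). Socs4 and Socs5 passed no test on the probe that stood for them, though a dimmer probe for Socs4 differed with age by -0.69 in mutants and -0.63 in WT. The 4 PIAS genes, whose products inhibit STATs in the nucleus, had log2 fold changes between -0.26 and 0.07 on their brightest probes in the 4 comparisons of genotype and of age and passed no test there. A dimmer Pias4 probe differed by -0.47 with genotype at E17.5 (unadjusted p = 0.0559 from limma). A second Pias3 probe, detected on 12 arrays, differed there by 0.265 (unadjusted p = 0.0183 from limma). Adjusted over all kept probes, these p-values were 0.269 and 0.164.

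**Figure D4:**
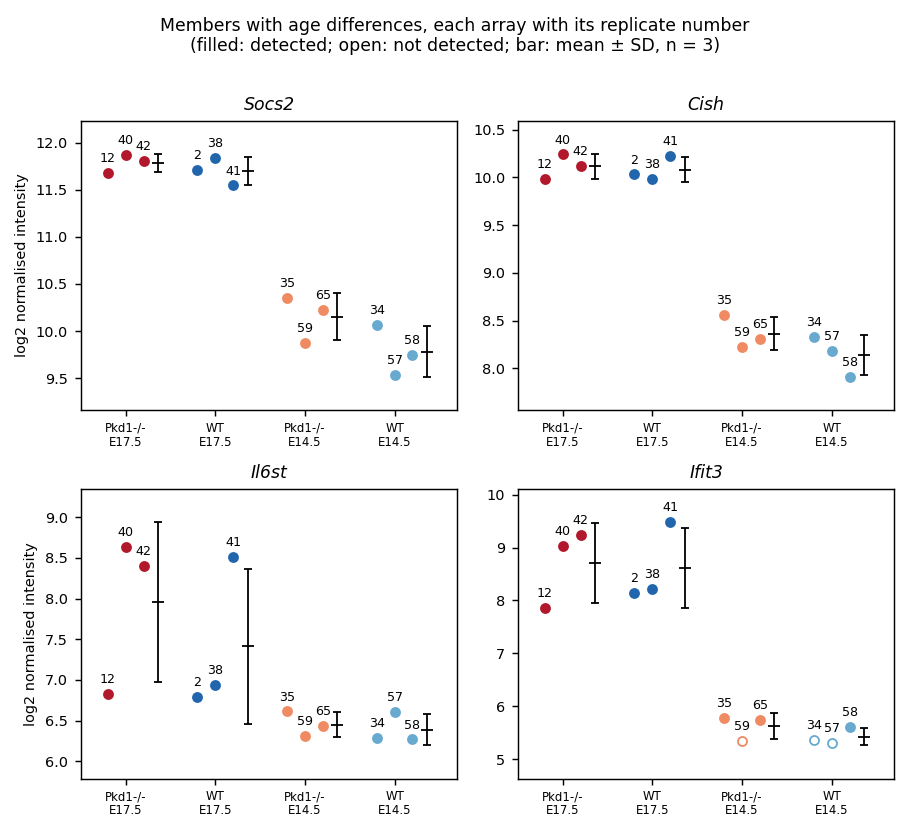
Log2 normalised intensity on each array for Socs2, Cish, Il6st and Ifit3 in the 4 groups, each point with its replicate number, the mean and SD (n = 3) as bars, and open points where the probe was not detected. Socs2 and Cish separate the ages, at 11.55 to 11.87 against 9.53 to 10.35 for Socs2, while Il6st and Ifit3 are high on replicates 40, 41 and 42 at E17.5.

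Of the 12 interferon response genes listed, 10 were kept. Over these 10 the median log2 fold change with age was 0.74 in mutants and 1.70 in WT, beside -0.02 and -0.05 over all features. With genotype the median was -0.67 at E17.5 and 0.24 at E14.5, beside 0.02 and 0.001 over all features. Single arrays carried much of these medians. Without E17.5 WT replicate 41 the median at E17.5 was -0.40, with 0 of 10 called. At E14.5 it was -0.002 without mutant replicate 35, with 5 genes above and 5 below 0, and 0.40 without mutant replicate 65. Mx2 and Usp18 were detected on no WT array at E14.5 and were kept through other groups, so their rise in WT follows in part from the rule. With such genes at their lower bound, the median with age was 0.74 in mutants and 1.63 in WT. Fewer cells that express a gene and less RNA per cell cannot be told apart in whole kidneys.

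The mean log2 intensity of the 10 genes was 8.31, 7.99 and 8.17 in mutants against 8.49, 8.59 and 9.09 in WT at E17.5. At E14.5 it was 7.74, 6.78 and 6.81 in mutants against 6.83, 6.65 and 6.80 in WT. At E17.5 each mutant array was below each WT array. At E14.5 mutant replicate 35 stood above the other 5 arrays, which lay between 6.65 and 6.83. On this array Usp18, Ifi35, Isg15, Irf9 and Ifitm3 lay within the range of the E17.5 mutants, as did Mx2, which was not detected on it. Oasl2 and Bst2 came just below that range, and Ifit3 stayed among the low arrays. Irf1 lay within the range of the E17.5 mutants on every E14.5 array.

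Oasl2, an oligoadenylate synthetase-like protein, had the widest range. It read 9.38, 8.43 and 8.55 in mutants against 9.36, 9.55 and 10.19 in WT at E17.5, and 8.16, 5.77 and 6.22 in mutants against 5.92, 5.08 and 5.82 in WT at E14.5. All E17.5 arrays were above all E14.5 arrays, although mutant replicate 35 came near them. The rise with age was 2.07 ± 0.52 in mutants (adjusted p = 0.00768) and 4.09 ± 0.52 in WT (adjusted p = 1.11e-04). The genotype difference at E17.5 minus that at E14.5 was -2.02 ± 0.74 (unadjusted p = 0.0186 from limma, adjusted p = 0.376).

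Usp18, which removes ISG15 from proteins and restrains the type I receptor, read 7.51, 6.83 and 7.27 in mutants against 7.65, 8.06 and 8.52 in WT at E17.5. At E14.5 it read 7.11, 4.83 and 5.22 in mutants against 5.0, 4.81 and 4.69 in WT, and there it was detected on replicate 35 alone. Each mutant array was below each WT array at E17.5. It rose at least 5.98-fold with age in WT (adjusted p = 2.43e-04), and by 1.48 on the log2 scale in mutants (adjusted p = 0.0232). The call in mutants was lost without E17.5 mutant replicate 12 (1.34, adjusted p = 0.0754) or 42 (1.44, adjusted p = 0.0566), or E14.5 mutant replicate 59 (1.04, adjusted p = 0.0945) or 65 (1.23, adjusted p = 0.0889).

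Mx2, a dynamin-like antiviral GTPase, read 5.82, 5.28 and 5.47 in mutants against 6.02, 6.38 and 6.98 in WT at E17.5, and 5.44, 4.83 and 4.66 in mutants against 4.76, 4.79 and 4.79 in WT at E14.5, undetected on all 6 arrays. It rose at least 1.94-fold with age in WT (adjusted p = 2.84e-04). Its log2 fold change at E17.5 was -0.94 ± 0.25, just outside the threshold (adjusted p = 0.0638), and it was called without E14.5 mutant replicate 35 (-0.94, adjusted p = 0.0494). With age in mutants it was at least 1.01-fold higher (adjusted p = 0.0941), which was called without that replicate (adjusted p = 0.0269) or without E17.5 WT replicate 41 (adjusted p = 0.0471).

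Ifi35, an interferon-induced leucine zipper protein, was the 1 response gene called with genotype. It read 5.72, 5.76 and 6.27 in mutants against 7.13, 6.57 and 6.82 in WT at E17.5, and 5.90, 5.36 and 5.31 in mutants against 5.69, 5.24 and 5.68 in WT at E14.5. The mutant arrays at E17.5 were all below the WT arrays of that age and reached into the E14.5 range. Its log2 fold change was -0.92 ± 0.21 in mutants against WT at E17.5 (adjusted p = 0.0415), a call that 13 of 22 other settings lost, with adjusted p up to 0.136. Leaving out E17.5 mutant replicate 12 or 40, E17.5 WT replicate 2 or 41, E14.5 mutant replicate 59 or 65 or E14.5 WT replicate 58 was enough, with values of -0.94 to -0.78. In WT Ifi35 rose with age by 1.30 (adjusted p = 5.53e-04).

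Isg15, a ubiquitin-like modifier, read 7.11, 6.42 and 6.68 in mutants against 7.09, 7.28 and 8.22 in WT at E17.5, and 6.65, 6.03 and 5.58 in mutants against 5.62, 5.89 and 5.88 in WT at E14.5. Mutant and WT arrays touched at E17.5, with a difference of -0.79 (unadjusted p = 0.0269, adjusted p = 0.190), and the rise in WT was 1.73 (adjusted p = 0.00105). Bst2, or tetherin, which holds budding virus at the membrane, read 8.28, 7.70 and 7.82 in mutants against 8.15, 8.41 and 8.89 in WT at E17.5, and 7.67, 6.74 and 6.28 in mutants against 6.72, 6.53 and 6.5 in WT at E14.5. It rose by 1.03 in mutants (adjusted p = 0.0174) and 1.90 in WT (adjusted p = 5.07e-04). Ifitm3, a membrane protein that blocks virus entry, was the brightest probe of the group, at 12.05 to 12.95 at E17.5, and rose by 0.83 in mutants and 1.53 in WT (adjusted p = 0.0177 and 5.15e-04). The calls of Bst2 and Ifitm3 in mutants were lost without E17.5 mutant replicate 12 or E14.5 mutant replicate 59 or 65, with values of 0.72 to 0.96 for Bst2 and 0.66 to 0.71 for Ifitm3.

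Irf9, the DNA-binding partner of STAT2 in the interferon response, read 8.80, 8.51 and 8.66 in mutants against 8.98, 8.98 and 9.14 in WT at E17.5, and 8.71, 8.10 and 8.14 in mutants against 8.07, 8.13 and 8.20 in WT at E14.5. Mutants lay below WT on all arrays at E17.5, by a log2 fold change of -0.37 (unadjusted p = 0.0287, adjusted p = 0.195), and Irf9 rose with age in WT by 0.90 (adjusted p = 6.26e-04). In mutants the difference with age was 0.34 (adjusted p = 0.0837) and was called without E14.5 mutant replicate 35 (0.54, adjusted p = 0.00344). Irf1, a transcription factor that interferon gamma induces, was the exception. It lay between 9.69 and 10.14 on all 12 arrays and passed no test.

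Ifit3, an antiviral protein that binds foreign RNA in a complex with other IFIT proteins, rose in both genotypes. It read 7.85, 9.03 and 9.25 in mutants against 8.14, 8.21 and 9.48 in WT at E17.5, and 5.79, 5.35 and 5.74 in mutants against 5.37, 5.30 and 5.61 in WT at E14.5. The rise was 3.08 ± 0.38 in mutants (adjusted p = 9.95e-05) and 3.19 ± 0.38 in WT (adjusted p = 7.26e-05). At E17.5 its high arrays were replicates 40, 41 and 42, the same as for Il6st, so that Ifit3 ordered the E17.5 arrays otherwise than Oasl2, Usp18 and Bst2, which were lowest on replicate 40. What the replicate numbers stand for is not stated in the labels.

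**Figure D5:**
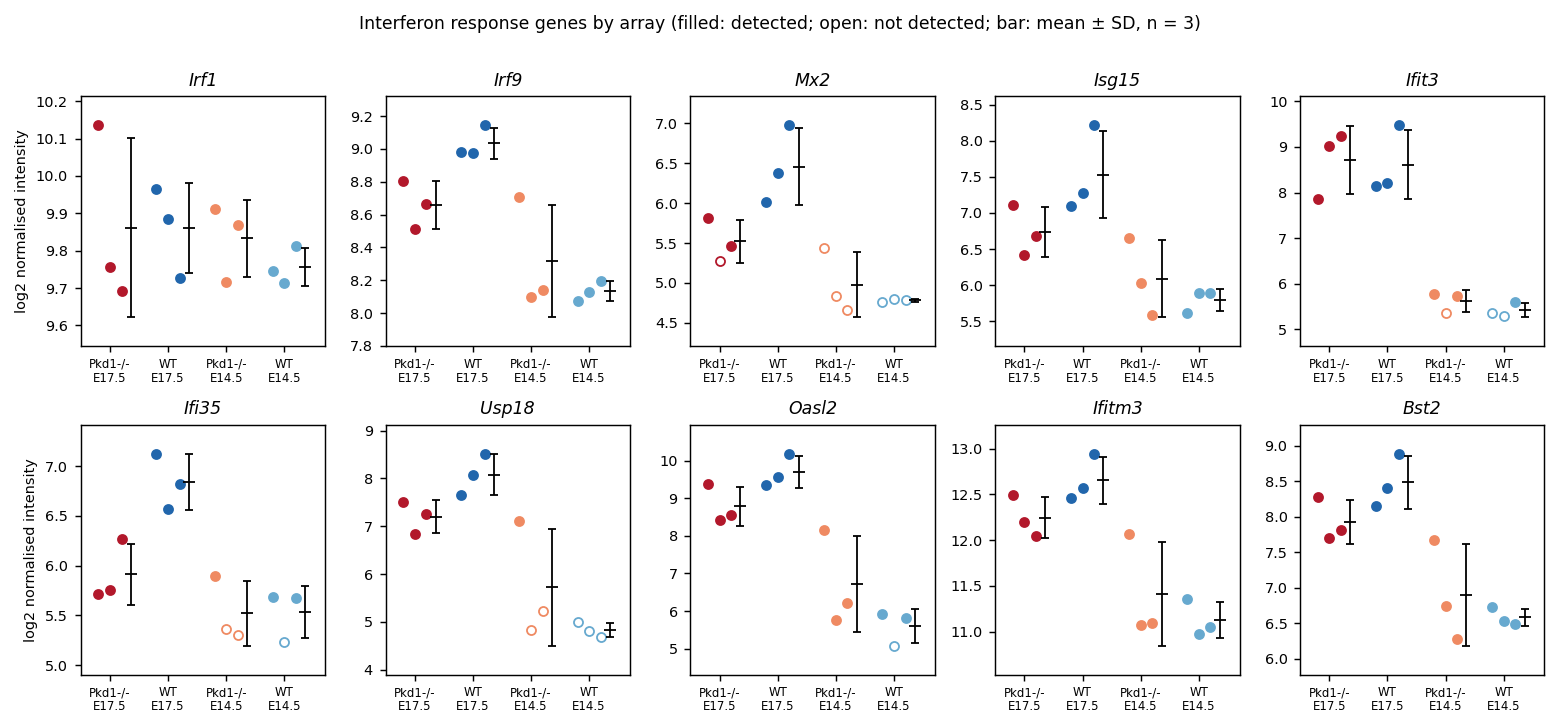
Log2 normalised intensity on each array for the 10 kept interferon response genes in the 4 groups, with the mean and SD (n = 3) as bars and open points for arrays without detection. For Irf9, Mx2, Ifi35 and Usp18, 4 of the 10 genes, all E17.5 mutant arrays lie below all E17.5 WT arrays, and in the other panels they overlap. At E17.5 mutant and WT arrays did not overlap, in either direction, for 24.2% of all features. For Oasl2 the E14.5 mutant replicate 35, at 8.16, stands above the other 5 arrays of its age, while Irf1 stays between 9.69 and 10.14.

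The arrays that stood out weighed on the age count. With all 12 arrays, 21.7% of all features rose with age in mutants and 20.2% in WT. Without E14.5 mutant replicate 35, 8 of the 10 response genes rose with age in mutants in place of 5, with a median of 1.04. Without E17.5 mutant replicate 12, or E14.5 mutant replicate 59 or 65, 2 of 10 did, with medians of 0.60, 0.64 and 0.54. In WT 9 of 10 rose whichever array was left out, with medians of 1.42 to 1.92. Leaving out replicate 35 and E17.5 WT replicate 41 together, a choice made after seeing the data, gave 8 of 10 in mutants with a median of 1.05 and 9 of 10 in WT with a median of 1.42. For genotype the same choice gave medians of -0.40 at E17.5 and -0.002 at E14.5, in place of -0.67 and 0.24. The median of the genotype difference at E17.5 minus that at E14.5 was then -0.39 in place of -0.89.

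Several of these genes carry the ISRE letter pattern beside their start site. The motif, GAAA then any 2 bases then GAAA, was searched on both strands of the promoter table, and it was present in 1079 of 27025 genes (3.99%). Of the 12 response genes 10 have an entry, and 5 of these 10 carry it, namely Isg15, Ifit1, Ifit3, Ifitm3 and Bst2. Among the 26 other members with an entry it was found in 3 (11.5%), Stat2, Stat4 and Socs1. Windows of 30 bases are shown for the 4 kept response genes that carry it, 5′ to 3′ on the strand of the gene, with 1 match in capitals. Both matches of Ifit3 lie on the opposite strand, so that their capitals are the reverse complement of the motif.
Isg15, chr4:156200871-156200900, minus strand: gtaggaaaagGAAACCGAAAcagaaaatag
Ifit3, chr19:34583363-34583392, plus strand: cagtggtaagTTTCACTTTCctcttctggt
Ifit3, chr19:34583397-34583426, plus strand: tttaagtctgTTTCAGTTTCtactttcctc
Ifitm3, chr7:141010706-141010735, minus strand: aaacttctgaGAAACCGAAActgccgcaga
Bst2, chr8:71537577-71537606, minus strand: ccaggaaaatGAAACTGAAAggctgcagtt
The Isg15 window holds 2 further matches and the Bst2 window 1, in part over the same bases. Ifi35 and Irf1 carried the GAS letters without the ISRE letters, as Ifitm3 and Bst2 carried both. Irf9, Irf7 and Oasl2 had neither pattern in this window, and Mx2 and Usp18 had no entry in the table.

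Of 68 further interferon-induced genes listed, 65 were on the array and 40 were kept. With age 15 of these 40 rose and 1 fell in mutants, and 27 rose and 1 fell in WT, with medians of 0.27 and 0.66, where 21.7% of all features rose and 21.3% fell in mutants and 20.2% rose and 23.5% fell in WT. At E17.5 32 of 40 had a log2 fold change below 0 in mutants against WT, with a median of -0.24, and 2 were called, both lower (1.39% of all features). They were Psmb9, a subunit of the immunoproteasome, at 5.38 ± 0.08 in mutants against 6.73 ± 0.19 in WT (log2 fold change -1.35, adjusted p = 5.89e-05), and Trim21, an antibody receptor in the cytosol, at 7.44 ± 0.12 in mutants against 7.99 ± 0.07 in WT (log2 fold change -0.55, adjusted p = 0.0206). The call of Trim21 was lost without E17.5 mutant replicate 40 or 42 or E17.5 WT replicate 2 or 41 (adjusted p of 0.0532 to 0.0853), and the mean of its probes differed by -0.12. Psmb9 was also lower in mutants at E14.5, at 5.31 ± 0.11 in mutants against 6.14 ± 0.08 in WT (log2 fold change -0.83, adjusted p = 0.0229), a call lost without E14.5 mutant replicate 35, 59 or 65 or E14.5 WT replicate 57 or 58 (adjusted p of 0.0631 to 0.0964). The mutant means of Psmb9 lay below the lowest signal at which probes were detected on those arrays. That signal was 5.44 to 5.51 on the mutant arrays at E17.5 and 5.45 to 5.58 at E14.5. The differences of Psmb9 therefore rest on mutant levels near the background. For the genotype difference between the ages limma called 0 of the 40, and 13 had an unadjusted p under 0.05 (10.7% of all features).

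Of 26 cytokines and growth factors that signal through Janus kinases, 24 were on the array and 3 were kept, Ctf1, Il15 and Tslp. None of the listed interferon genes, Ifnb1, Ifna4, Ifng and Ifnk, was kept. Of these 3 limma called 0 with genotype, with 2 at an unadjusted p under 0.05 at E17.5 and 0 at E14.5. Of 31 further receptors 11 were kept, with 0 called for genotype at either age by limma and 1 at an unadjusted p under 0.05 at E17.5 and 0 at E14.5. Of 38 further targets and feedback genes 31 were kept, with 0 called for genotype at either age by limma and with 6 at an unadjusted p under 0.05 at E17.5 and 1 at E14.5. Over all features 20.1% reached an unadjusted p under 0.05 at E17.5 and 3.2% at E14.5, so nothing particular to these 3 lists is read from such counts. A further list held genes of the IRF family and of proteins that bind IRF2, and 5 of them were kept. Of these, Irf8, a factor of macrophages and dendritic cells, rose with age by 1.20 in mutants and 0.95 in WT, and Irf2 by 0.81 and 0.71.

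Markers of other cells were measured beside these genes. Proximal tubule markers, 10 of 12 listed kept, averaged 8.55 to 8.94 on the mutant arrays against 10.49 to 10.99 on the WT arrays at E17.5, and 6.21 to 6.31 on the mutant arrays against 5.80 to 7.0 on the WT arrays at E14.5, with Slc5a2 not kept and the other not analysed here. Every mutant array was below every WT array for this mean at E17.5, and every E17.5 array was above every E14.5 array. The markers split with genotype at E17.5. Miox, Kap, Dpep1, G6pc and Slc5a10 were called lower in mutants, with log2 fold changes of -4.29 to -2.56. By limma, Lrp2 (0.01), Cubn (-0.07), Slc34a1 (-0.70), Slc22a6 (-0.81) and Fbp1 (-0.96) were not called (adjusted p of 0.119 to 0.987). The mean therefore does not stand for each marker. Of the 10 response genes 1 was called lower in mutants at E17.5 (1.39% of all features). With age, 5 in mutants (21.7% of all features) and 9 in WT (20.2%) were called higher. The part of this list in those differences was not tested. Macrophage markers, 10 of 14 listed kept, averaged 7.20 to 7.52 on mutant arrays against 7.33 to 7.43 on WT arrays at E17.5 and 6.80 to 6.93 on mutant arrays against 7.09 to 7.16 on WT arrays at E14.5, with Fcgr1, Fcer1g and Ptprc not kept and the other not analysed here. The groups met at E17.5, and the mutant arrays were the lower ones at E14.5. Of the kept macrophage markers, limma called Csf1r higher in mutants at E17.5 (0.82, adjusted p = 0.00491). C1qb (-0.40) and C1qc (-0.37) lay lower there, and the others lay between -0.29 and 0.35, none of them called. Endothelial markers, 10 of 11 kept, averaged 10.13 to 10.31 on mutant arrays against 10.29 to 10.55 on WT arrays at E17.5 and 9.85 to 10.08 on mutant arrays against 9.68 to 9.94 on WT arrays at E14.5, with Kdr not kept. The WT array with the liver markers, replicate 2, was not the highest of its group for any response gene but Ifi35 and Irf1.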

How the data were processed

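Total RNA of 12 kidney pairs was measured on Illumina mouse WG-6 BeadChips. The authors deposited bead summary intensities that were not normalized between arrays, and 31.3 to 34.0% of the values per array are at or below 0, so a background had been subtracted. A detection p-value against negative control beads was deposited with every intensity. A second deposited table holds intensities after background subtraction, log2 transformation and quantile normalization by the authors, returned to the linear scale. It served as an alternative here. The bead software was Illumina BeadStudio, and the submitters' processing notes name limma with no version.

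The first table was processed with normexp background correction, for which the detection p-values gave each array's noise level. The offset was 16, followed by quantile normalization and log2 transformation in limma 3.58.1 under R 4.3.3. Of 45281 probes 21526 were kept (detection p under 0.05 on at least 3 of 12 arrays). Probe symbols came from GEO's platform annotation: 34885 probes had 1 symbol, 18 several and 10378 none, and 34807 matched the RefSeq gene table. The brightest kept probe stood for its gene, which gave 14882 tested features, 11616 of them named. For 15 members more than 1 probe was kept. A linear model with 4 groups was fitted to each feature, with moderated variances, and p-values were adjusted by Benjamini-Hochberg over all features. The arrays were compared unpaired. The fit was tested on simulated data before use. Depth has no counterpart on arrays, and 3 arrays a group limit the precision.

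The members and gene lists were chosen with earlier results of these data known. The values of 20 members on every array are printed by a rule: members called for genotype or for the difference between ages, Ifnlr1, Jakmip1 and Jakmip2, members with unadjusted p under 0.05 for genotype at either age, and the 6 with the largest mean change among those called with age in both genotypes. Values of Il6st, Ifngr2, Stat3, Stat6, Osmr, Il6ra, Ifitm3, Jak1, Socs6, Psmb9, Trim21, Irf2 and Irf8 were added after they were seen. Promoter sequences are from RefSeq, build GRCm38.p6, and 36 of 45 members had an entry. Alternatives covered background, normalization, offset, detection filter, probe choice, weights, prior, the thresholds of the study and each array left out. The number of columns with per-sample values and no sample was 0.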

Additional observations from a re-analysis of the deposited data

How the results depend on the processing

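Of 3 members called for genotype at E17.5, 1 remained called with the 6 arrays of that age alone or with a fold of at least 2, and 10 were called with array weights (3 higher, 7 lower). Leaving out 1 array gave 1 to 4, and leaving out E14.5 mutant replicate 35 and E17.5 WT replicate 41 together, chosen after seeing the data, gave 1. Over all features that count was 472. It was 242 in the table the authors normalized, 183 with 6 arrays, 2081 with array weights, 143 at the study's thresholds, 134 to 517 with 1 array left out and 178 without both arrays.

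At E14.5 0 members were called under any setting run. Over all features the count was 8. It was 4 for features detected on all 12 arrays, 2 with 6 arrays, 48 with array weights, 27 at the study's thresholds and 4 to 11 with 1 array left out. For age in mutants, 18 members were called, 8 with a fold of at least 2 and 13 to 23 with 1 array left out. Over all features the fold limit left 1299 of 6404. For age in WT, 23 members were called, 11 with the fold limit, 14 of those detected on all 12 arrays, where fewer members were tested, and 20 to 24 with 1 array left out. Over all features the fold limit left 1320 of 6491. For the difference between the ages, array weights called 3 members in place of 0. Over all features the count was 26. It was 9 without further background correction, 8 in the authors' table, 44 with an offset of 50, 2 for features detected on all 12 arrays, 332 with array weights, 42 with a trended robust prior and 15 without both arrays.

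The age difference of Jakmip1 in mutants, 0.06, turned to -0.015 with array weights and ran from -0.087 to 0.138 with 1 array left out, below 0 without E17.5 mutant replicate 12 or E14.5 mutant replicate 65. The genotype difference of Cish at E17.5, 0.03, ran from -0.030 to 0.106 with 1 array left out, below 0 without E17.5 mutant replicate 40 or E17.5 WT replicate 38. The age difference of Jak1 in mutants turned to 0.066 with the mean of its probes. No other printed fold change of a member turned sign among those recomputed gene by gene, which left out the genotype differences of Irf1 and Ifit3 at E17.5. Of the 10 response genes, 9 were below 0 there with cyclic loess, array weights or the mean of probes, in place of 8. The same count was reached with any 1 E17.5 array left out. The signs of Irf1 (0.002) and Ifit3 (0.10) are therefore not settled. The cause of these shifts was not tested. Where array weights or the trended prior changed a call, the weights and prior were estimated from the same 12 arrays. With 3 arrays a group, members near the detection limit have only a bound, and a member that was not called is not shown to be unchanged. No paired analysis was possible because the replicate number in the labels is the same for all arrays of a group, and the number that names each array is shared by no other array. What the array numbers stand for is not stated.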
